A study of Papio anubis with 24 samples.

Results

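The let-7 miRNAs are among the most abundant and most conserved small RNAs of differentiated animal tissues. Each mature let-7 strand is loaded into an Argonaute protein and recognises messenger RNAs through a seed sequence that the whole family has in common, so that the members compete for one pool of targets, which includes RAS and HMGA2 transcripts. The RNA-binding protein LIN28 blocks maturation of let-7 precursors in stem cells and in some tumors. The count table lists 2656 mature human miRNAs (prefix hsa), from which 8 were chosen by name, hsa-let-7a-5p, hsa-let-7b-5p, hsa-let-7d-5p, hsa-let-7e-5p, hsa-let-7f-5p, hsa-let-7g-5p, hsa-let-7i-5p and hsa-miR-98-5p. let-7c-5p, which carries the same seed, was left out of the group and is given only as the nearest paralogue.

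Small RNA was sequenced from 12 baboons (*Papio anubis*), each of which gave an endometriotic lesion and its own eutopic endometrium, 24 libraries in all. In 8 of the animals endometriosis had been induced by placing menstrual tissue in the peritoneal cavity, and the tissues represent 15 months of disease. In the other 4 animals the disease was spontaneous, and no time since onset is given. The eutopic samples also came from diseased animals, so that no healthy endometrium enters any comparison, and both tissues are bulk mixtures of cells. The comparisons were lesion against eutopic endometrium within each disease and over all 12 animals, and spontaneous against induced disease within each tissue.

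The libraries held 2592999 to 7573913 miRNA counts (median 5198008). Levels are given as CPM, counts scaled to library size, with scaling by the trimmed mean of M-values (TMM), a method that sets the scale of each library from the bulk of its miRNAs, and a count of 3 corresponded to 0.318 to 1.41 CPM, covering counting error only. Every member was therefore far above the limit of detection in every library. The summed level of 8 epithelial miRNAs ranged from 490 to 7590 CPM in induced lesions against 6313 to 20177 CPM in induced eutopic endometrium, and from 237 to 2233 CPM in spontaneous lesions against 5022 to 13846 CPM in spontaneous eutopic endometrium, with miR-205-5p close to 0 in every group. In induced lesions 7 of the 7 epithelial miRNAs tested were called lower. Of all 507 miRNAs tested there, 117 were called lower and 105 higher. All 5 muscle miRNAs were called higher in induced lesions, with a summed level of 162007 to 1660160 CPM in induced lesions and 26472 to 92250 CPM in induced eutopic endometrium, and 107112 to 986474 CPM in spontaneous lesions and 61652 to 432968 CPM in spontaneous eutopic endometrium. Most of each muscle sum was miR-143-3p, with a mean of 661712 CPM in induced lesions beside 5723 CPM for miR-145-5p. These TMM values are no shares of a library and have no fixed total. Erythroid (4 of 4), endothelial (2 of 2) and leukocyte (2 of 6) miRNAs were also called higher in induced lesions, while with library totals in place of TMM 3, 0 and 1 of them were and the epithelial and muscle counts were as before. The part of this tissue makeup in the let-7 values below was not tested, and in bulk samples fewer cells of a type and less RNA per cell cannot be told apart.

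let-7a-5p and let-7f-5p made up most of the family. Over the 24 libraries let-7a-5p averaged 18902 ± 4128 CPM and let-7f-5p 17818 ± 5561 CPM (SD, n = 24). They were followed by let-7i-5p at 4867 ± 1238 CPM, let-7g-5p at 4106 ± 836 CPM and let-7b-5p at 3620 ± 656 CPM. let-7e-5p at 1410 ± 393 CPM, miR-98-5p at 1034 ± 360 CPM and let-7d-5p at 642 ± 146 CPM were the least abundant, with let-7a-5p 29.5 times as high as let-7d-5p. All 8 are about the same length, so that these counts can be compared between miRNAs, within the bias of small RNA cloning.

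The order had clear steps and close neighbours. let-7f-5p exceeded let-7i-5p in 24 of 24 libraries (median ratio 3.48) and let-7b-5p exceeded let-7e-5p in 24 of 24 (median ratio 2.77), so that the family fell into an upper pair, a middle group of 3 and a lower group of 3. Inside these groups the neighbours changed places. let-7a-5p was above let-7f-5p in 18 of 24 libraries with a median ratio of 1.09, let-7i-5p above let-7g-5p in 18 of 24, and let-7g-5p above let-7b-5p in 18 of 24. let-7e-5p was above miR-98-5p in 20 of 24 libraries and miR-98-5p above let-7d-5p in 22 of 24. In spontaneous lesions the order of the close neighbours shifted, with let-7g-5p above let-7b-5p in 1 of 4 libraries, and let-7e-5p above miR-98-5p in 2 of 4.

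Among all miRNAs of a library, let-7a-5p ranked 6 to 12 and let-7f-5p 6 to 17. let-7i-5p ranked 18 to 36, let-7g-5p 21 to 33 and let-7b-5p 19 to 41, while let-7e-5p ranked 41 to 60, miR-98-5p 44 to 111 and let-7d-5p 65 to 81. The first place went to miR-10b-5p in 14 libraries and to miR-143-3p, a smooth muscle miRNA, in 10. Between the tissues, let-7g-5p had a median rank of 30 in the 12 lesions (range 25 to 33) and 22.5 in the 12 eutopic endometria (range 21 to 27).

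**Figure D1:**
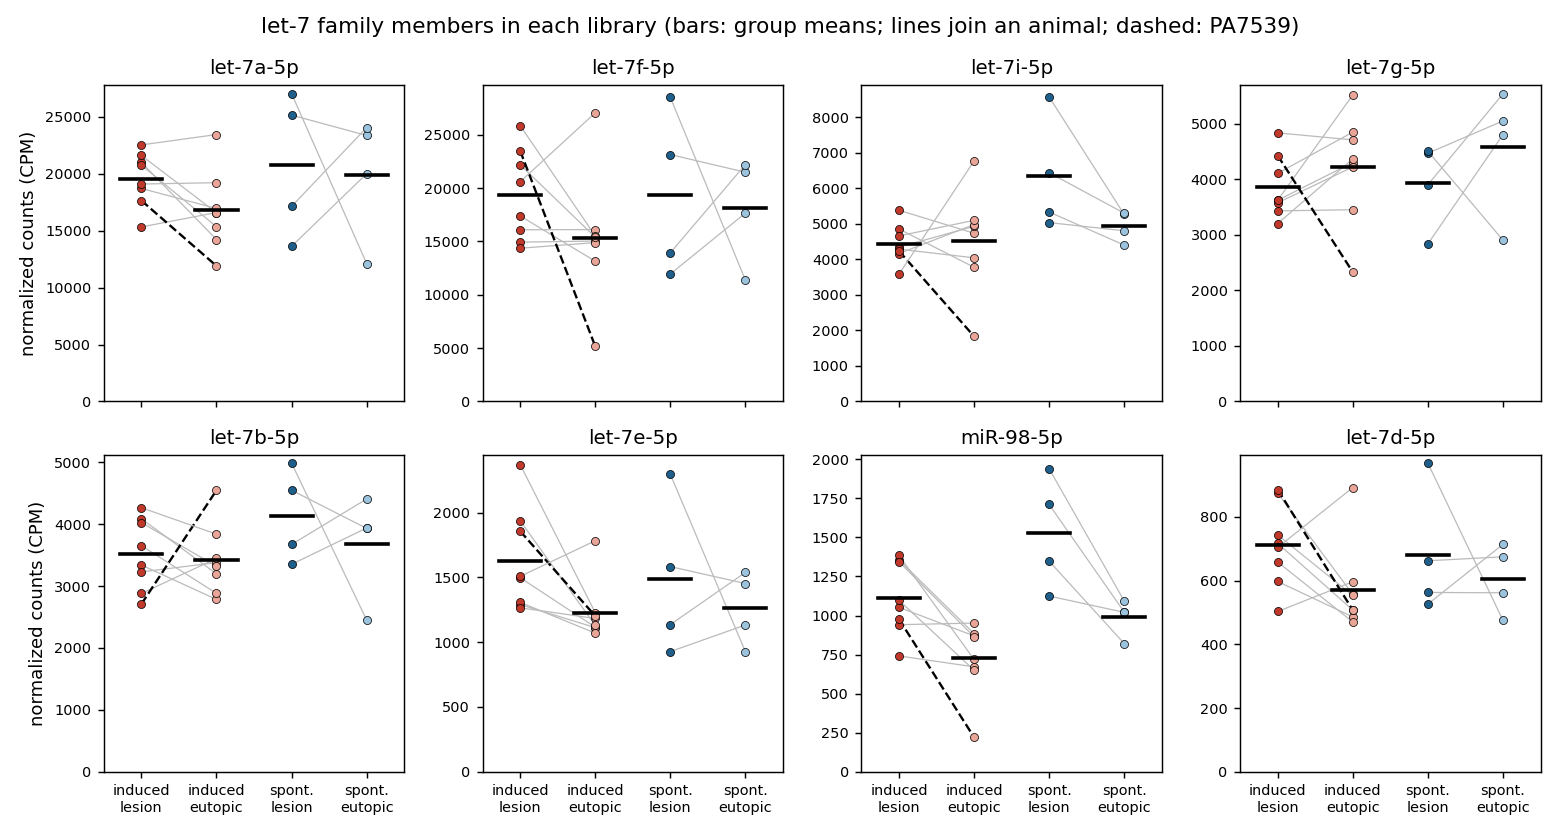
Normalized counts (CPM, linear axes from 0) of the 8 family members in order of mean level, by group, with points for libraries, bars for group means and lines joining the lesion and eutopic endometrium of one animal. miR-98-5p is higher in the lesion in 11 of 12 animals, and the dashed line marks PA7539, whose eutopic library has the lowest let-7f-5p and miR-98-5p levels (5168 and 221 CPM).

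The scale on which lesion and eutopic endometrium were compared decided the sign of most members. The 8 members together took 4.14% ± 1.16 of all miRNA counts in induced lesions and 6.83% ± 1.32 in induced eutopic endometrium (SD, n = 8 each). In spontaneous disease they took 4.28% ± 0.78 in lesions and 6.10% ± 2.04 in eutopic endometrium (SD, n = 4 each). miR-143-3p alone held 17.2% to 71.7% of the counts in induced lesions and 4.88% to 12.3% in induced eutopic endometrium. It held 13.9% to 49.9% in spontaneous lesions and 10.1% to 31.0% in spontaneous eutopic endometrium. With TMM the median log2 fold change of all 507 miRNAs tested in induced disease was −0.14, while with library totals alone it was −1.10. Changes of the members are therefore also given relative to these medians. In induced disease the median member stood at 0.27 with TMM (8 of 8 members above the median of all miRNAs) and at −0.72 with library totals (7 of 8 above it, with let-7g-5p at the median itself). In spontaneous disease the median member stood at 0.14 against −0.09 for all 485 miRNAs with TMM, and over the 12 animals at 0.22 against −0.14 for all 527 miRNAs.

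In induced disease 1 of the 8 members, miR-98-5p, passed the test as higher in lesions, where 20.7% of all miRNAs tested were called higher (105 of 507, with 117 called lower). With library totals the split of calls was 33 higher and 294 lower. miR-98-5p, a let-7 miRNA encoded on the X chromosome of mammals, ranged from 742 to 1385 CPM in the 8 induced lesions (median 1075) and from 221 to 952 CPM in the matched eutopic endometria (median 792). The lesion had the higher level in 7 of 8 animals, PA7524 being the exception at 941 CPM in the lesion and 952 CPM in the eutopic endometrium, and the groups overlapped. The log2 fold change was 0.66 (standard error 0.25, 95% confidence interval 0.12 to 1.20, adjusted p = 0.0475 in the quasi-likelihood test of edgeR, corrected by Benjamini and Hochberg's method over all miRNAs tested). The call was close to the threshold of 0.05. It was lost without PA7255, PA7457, PA7223 or PA7696 (adjusted p of 0.0753, 0.0939, 0.0833 and 0.0791 in the same test), while without PA7539 the change was 0.47 with an adjusted p of 0.0395 in that test. With library totals miR-98-5p was at −0.31.

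The other 7 members did not pass in induced disease. let-7e-5p, a member encoded beside miR-99b and miR-125a, was nearest, with 1265 to 2370 CPM (median 1503) in lesions and 1070 to 1782 CPM (median 1156) in eutopic endometrium. Its level was higher in 7 of 8 lesions than in their own eutopic endometrium (log2 fold change 0.38, standard error 0.16, adjusted p = 0.0785 by edgeR), and without PA7696 it passed (0.49, adjusted p = 0.0327 by edgeR). let-7f-5p, one of the abundant pair, ranged from 14370 to 25865 CPM in induced lesions (median 18997) and from 5168 to 27064 CPM in eutopic endometrium (median 15223). It was higher in 4 of 8 lesions and lower in 4. Its log2 fold change was 0.39 with a confidence interval of −0.19 to 0.97, and without PA7539 the value was 0.16. let-7a-5p ranged from 15337 to 22546 CPM in lesions (median 19938) and from 11912 to 23456 CPM in eutopic endometrium (median 16594), with 5 of 8 lesions higher and a log2 fold change of 0.23 (−0.09 to 0.55). The groups overlapped for both.

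let-7d-5p, the least abundant member, ranged from 503 to 886 CPM in induced lesions (median 711) and from 470 to 892 CPM in eutopic endometrium (median 531), a log2 fold change of 0.31 (confidence interval −0.09 to 0.71) with 6 of 8 lesions higher. let-7b-5p ranged from 2710 to 4267 CPM in lesions (median 3496) and from 2785 to 4549 CPM in eutopic endometrium (median 3350), with a log2 fold change of 0.03 (−0.30 to 0.37). let-7i-5p ranged from 3579 to 5382 CPM in lesions (median 4316) and from 1834 to 6767 CPM in eutopic endometrium (median 4832), with a log2 fold change of 0.03 (−0.46 to 0.52), or −0.14 without PA7539. The levels of all 3 overlapped between the tissues. let-7g-5p was the single member with a negative estimate (−0.12, −0.52 to 0.29). It ranged from 3202 to 4833 CPM in induced lesions (median 3621) and from 2328 to 5517 CPM in eutopic endometrium (median 4333), and 6 of 8 lesions were lower, PA7539 and PA7696 being the others. Without PA7539 the estimate was −0.26.

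In spontaneous disease 0 of the 8 members passed with edgeR, and 0 had an unadjusted p under 0.05. Of all 485 miRNAs tested, 0.206% were called higher (1 miRNA), and 18.6% (90) had an unadjusted p under 0.05. DESeq2 called 48 miRNAs and the edgeR-robust method 45, again with 0 of the 8 members. miR-98-5p had 1125, 1940, 1711 and 1348 CPM in the lesions of PA5655, PA6303, PA6627 and PA6762, against 1021, 1093, 1023 and 821 CPM in their eutopic endometria. The lesion values lay above every eutopic value, as was the case in one direction or the other for 13.4% of all miRNAs tested (65 of 485). The log2 fold change was 0.59 (standard error 0.28, confidence interval −0.08 to 1.26, adjusted p = 0.281 by edgeR). With library totals it was 0.03, and as a percentage of all counts the groups overlapped.

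For let-7a-5p and let-7f-5p the 4 spontaneous animals disagreed in direction. let-7a-5p had 25165, 17141, 13633 and 27058 CPM in the lesions of PA5655, PA6303, PA6627 and PA6762, against 23375, 24068, 20015 and 12121 CPM in their eutopic endometria. It was lower in the lesions of PA6303 and PA6627 and higher in those of PA5655 and PA6762. let-7f-5p had 23150, 13942, 11954 and 28510 CPM in the lesions, in the same order of animals, against 21494, 22216, 17663 and 11372 CPM in the eutopic endometria. The estimates were 0.04 for let-7a-5p (confidence interval −0.72 to 0.80) and 0.03 for let-7f-5p (−0.81 to 0.86). Without PA6762 they were −0.31 and −0.37. let-7i-5p was higher in all 4 spontaneous lesions, with 5034, 8572, 6440 and 5332 CPM against 4804, 5264, 5299 and 4402 CPM in the eutopic endometria (log2 fold change 0.32, confidence interval −0.31 to 0.94).

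The remaining members were each higher in the lesion of PA6762. let-7g-5p had 4466, 3899, 2835 and 4504 CPM in the lesions of PA5655, PA6303, PA6627 and PA6762, against 5048, 5535, 4801 and 2902 CPM in their eutopic endometria (log2 fold change −0.22, confidence interval −0.90 to 0.47). It was lower in 3 of 4 lesions and higher in that of PA6762. let-7e-5p had 1583, 1136, 928 and 2295 CPM in the lesions, against 1453, 1538, 1133 and 926 CPM in the eutopic endometria, and was higher in PA5655 and PA6762. let-7b-5p had 4549, 3673, 3352 and 4988 CPM in the lesions, against 3933, 4408, 3939 and 2452 CPM in the eutopic endometria, and was higher in the same 2 animals. let-7d-5p had 662, 526, 563 and 969 CPM in the lesions, against 675, 714, 562 and 475 CPM in the eutopic endometria. The estimates of let-7b-5p (0.17), let-7e-5p (0.16) and let-7d-5p (0.12) had intervals at least as wide as the −0.51 to 0.85 of let-7b-5p.

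Over all 12 animals miR-98-5p was again the 1 member of 8 that passed, where 25.6% of all miRNAs were called higher (135 of 527). The mean was 1252 ± 336 CPM in the 12 lesions and 816 ± 234 CPM in the 12 eutopic endometria (SD). The log2 fold change was 0.65 (standard error 0.17, confidence interval 0.30 to 1.01, adjusted p = 0.00493 in the test of edgeR), and 11 of 12 lesions were higher. The call held without each animal in turn, with adjusted p values of 0.00418 to 0.0124, but not with library totals, where the change was −0.19 (adjusted p = 0.418 by edgeR). let-7e-5p (0.32, adjusted p = 0.102 by edgeR), let-7f-5p (0.28), let-7d-5p (0.26), let-7a-5p (0.18), let-7i-5p (0.14), let-7b-5p (0.09) and let-7g-5p (−0.14) did not pass. With library totals these 7 were all called lower in lesions, between −0.53 for let-7e-5p and −0.99 for let-7g-5p. On that scale 309 of all 527 miRNAs were called lower and 38 higher. The paralogue let-7c-5p was called higher on either scale. Its mean was 8017 ± 4185 CPM in the 12 lesions and 2295 ± 1904 CPM in the 12 eutopic endometria (SD), with the lesion higher in every animal. The log2 fold change was 1.96 with TMM and 1.12 with library totals (adjusted p of 5.17e-04 and 9.05e-04 by edgeR). In spontaneous disease alone let-7c-5p was not called with TMM (1.47, confidence interval −0.13 to 3.07, adjusted p = 0.275 by edgeR). The smallest difference was in PA6303, with 4477 CPM in the lesion and 4400 CPM in the eutopic endometrium.

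**Figure D2:**
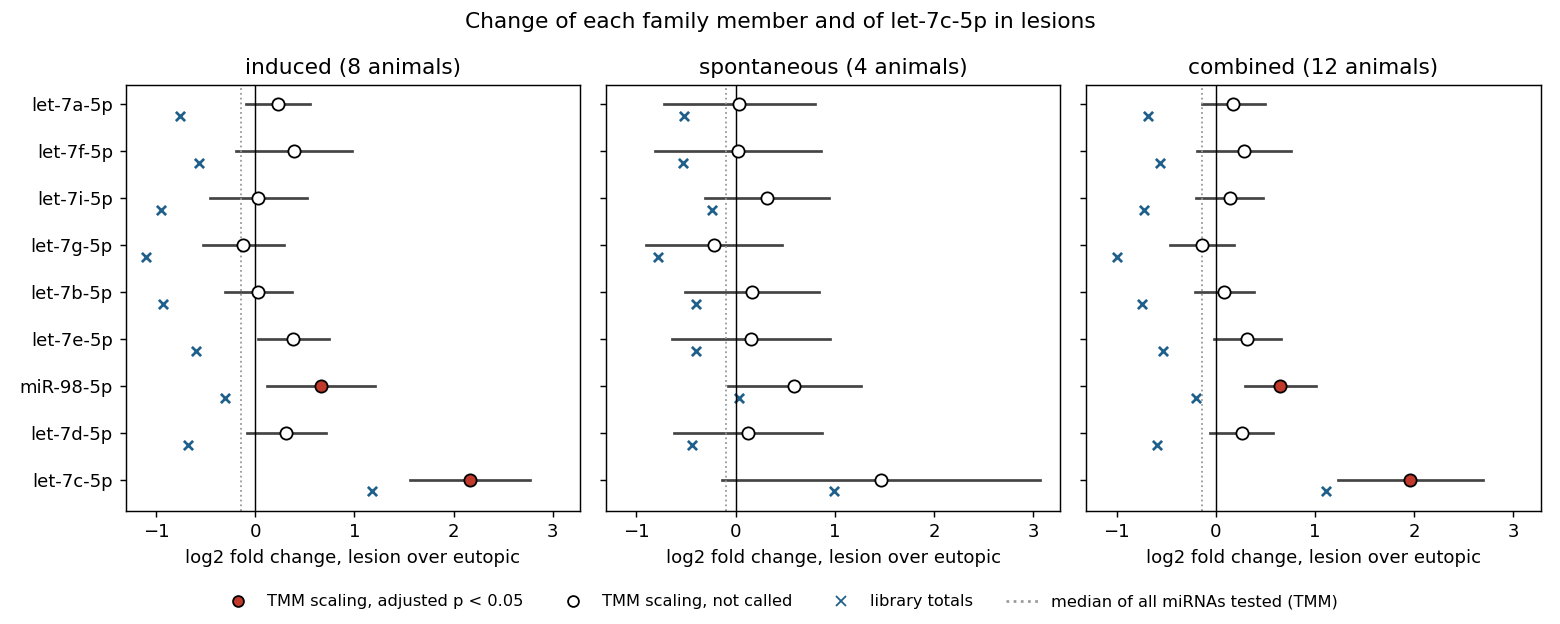
Log2 fold change of lesion over eutopic endometrium for the 8 members and let-7c-5p, with 95% confidence intervals, in induced (8 animals), spontaneous (4 animals) and all 12 animals combined. Filled points passed an adjusted p of 0.05 with TMM scaling, crosses give the same fit with library totals, and the dotted line is the median of all miRNAs tested; miR-98-5p is at 0.66, 0.59 and 0.65 with TMM.

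The share of a member in the family's own counts does not depend on the scaling between libraries. let-7g-5p held 7.13% ± 0.787 of the family's counts in induced lesions and 9.09% ± 1.29 in induced eutopic endometrium (SD, n = 8 each). In spontaneous disease it held 6.79%, 7.67%, 6.85% and 6.004% in the lesions of PA5655, PA6303, PA6627 and PA6762, against 8.17%, 8.54%, 8.82% and 8.18% in their eutopic endometria. The share was lower in the lesion in 11 of 12 animals, PA7696 being the exception (8.17% in the lesion and 6.81% in the eutopic endometrium). As a percentage of all miRNA counts let-7g-5p did not overlap between induced lesions (0.194% to 0.388%) and induced eutopic endometrium (0.444% to 0.713%), as held for 16.4% of all miRNAs tested (83 of 507). This percentage, unlike the share, depends on the scaling. It is on the scale of library totals, where let-7g-5p and the median of all miRNAs both stood at −1.10. As CPM its induced groups overlapped. The shares and percentages are descriptions without a test. The share of let-7g-5p was also lower in 11 of 12 lesions when let-7c-5p was counted in the family's sum. That count is no separate support. let-7c-5p was higher relative to let-7a-5p in 12 of 12 lesions, so that adding it lowers the members' shares in lesions.

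Other members shifted within the family less regularly. miR-98-5p held 2.35% ± 0.911 of the family's counts in lesions and 1.67% ± 0.433 in eutopic endometrium (SD, n = 12 each) and its share was the higher in 9 of 12 lesions. let-7e-5p had a higher share in the lesion in 9 of 12 animals, and its ratio to let-7a-5p was higher in 10 of 12 lesions. let-7a-5p held 35.9% ± 2.57 in the 12 lesions and 36.4% ± 2.82 in the 12 eutopic endometria (SD). Its share was higher in 9 of 12 lesions, and with let-7c-5p in the sum in 1 of 12. Without PA7539 the mean was the higher in lesions, 36.3% ± 2.25 against 35.8% ± 2.01 in eutopic endometrium (SD, n = 11 each). let-7f-5p held 34.4% ± 4.54 in lesions and 32.2% ± 4.83 in eutopic endometrium, with the higher share in 8 of 12 lesions, or in 2 of 12 with let-7c-5p in the sum. Without PA7539 these means were 33.7% ± 4.09 in lesions and 33.4% ± 2.37 in eutopic endometrium (SD, n = 11 each). let-7d-5p had a higher share in 6 of 12 lesions, or in 3 of 12 with let-7c-5p, and let-7e-5p then in 6 of 12.

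let-7i-5p split the spontaneous lesions, with 16.9% in PA6303 and 15.5% in PA6627 but 7.66% in PA5655 and 7.11% in PA6762. The 2 lesions with the high let-7i-5p share were also those with the high miR-98-5p share, 3.82% and 4.13%, against 1.71% in PA5655 and 1.80% in PA6762. The summed level of 6 leukocyte miRNAs was 12419 CPM in the lesion of PA6303 and 3936 CPM in that of PA6627, against 1266 CPM in PA5655 and 1362 CPM in PA6762. The muscle miRNAs ran the other way, with 317361 and 107112 CPM in PA6303 and PA6627 and 834357 and 986474 CPM in PA5655 and PA6762. The endothelial sum was 16922 and 18514 CPM in PA6303 and PA6627, against 10461 and 11172 CPM in PA5655 and PA6762. The epithelial and erythroid sums did not split these lesions. Among induced lesions the highest leukocyte sum, 3715 CPM in PA7258, went with 9.16% let-7i-5p and the lowest miR-98-5p share (1.40%). The next, 2914 CPM in PA7223, went with 9.67% let-7i-5p and the highest miR-98-5p share (3.12%). The highest let-7i-5p share in induced lesions was 10.6% in PA7254 and the lowest 6.05% in PA7696. Their leukocyte sums were 2268 and 1198 CPM, their muscle sums 162007 and 479154 CPM, and their endothelial sums 8425 and 8607 CPM. The muscle sum of PA7254 was the lowest of the induced lesions. The part of any of these in the let-7i-5p and miR-98-5p values was not tested.

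**Figure D3:**
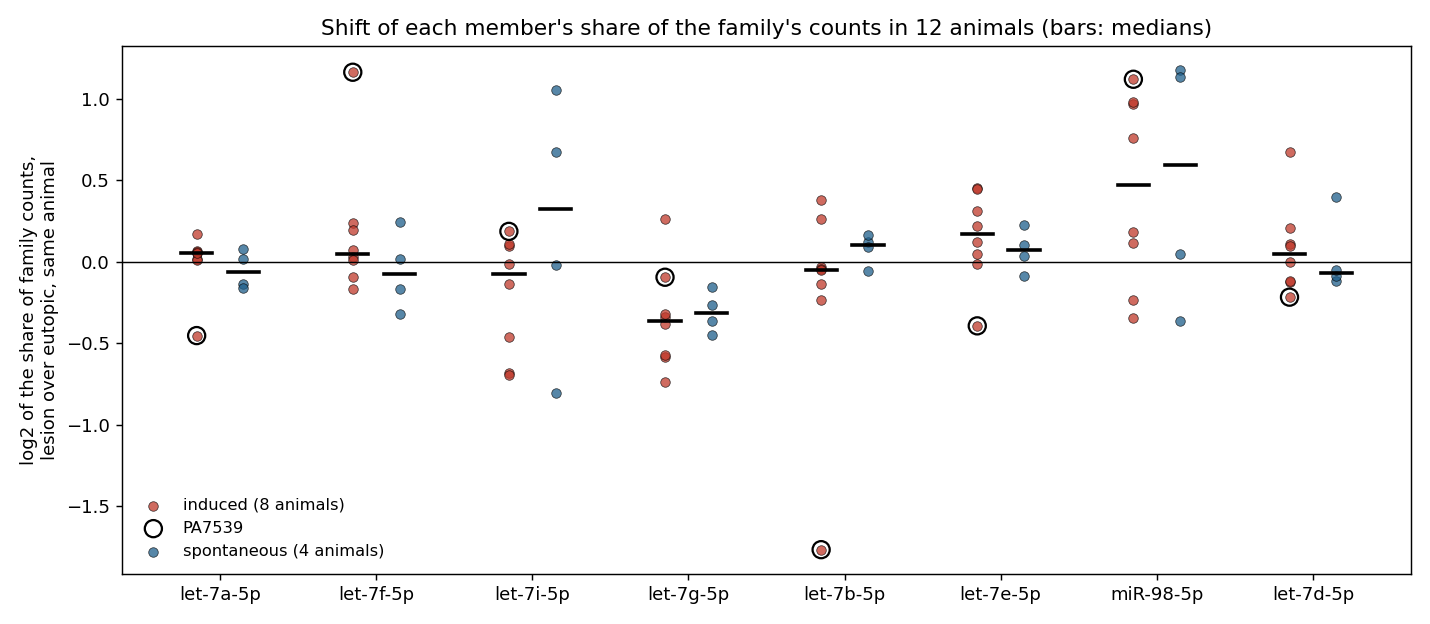
Log2 of the ratio between each member's share of the family's counts in the lesion and in the eutopic endometrium of the same animal, with induced animals on the left and spontaneous animals on the right of each pair and bars for medians. let-7g-5p lies below 0 in 11 of 12 animals, and the circled animal, PA7539, lies apart for let-7b-5p and let-7f-5p.

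The eutopic library of PA7539 stood apart from the other 7 induced eutopic libraries and was the smallest of all 24. let-7f-5p was at 5168 CPM in it, against 13155 to 27064 CPM in the others, and miR-98-5p at 221 CPM, against 650 to 952 CPM. let-7a-5p (11912 CPM), let-7i-5p (1834 CPM) and let-7g-5p (2328 CPM) were also below the other induced eutopic libraries. let-7b-5p was above them at 4549 CPM. Within the family, let-7f-5p held 18.6% there and let-7b-5p 16.4%, which put let-7b-5p at place 3 in the family. The library also had the lowest summed muscle level (26472 CPM, mostly miR-143-3p) and the lowest endothelial level (1465 CPM) of its group. Their part in these values was not tested. Without PA7539 the induced eutopic mean of let-7f-5p was 16743 ± 4644 CPM and that of miR-98-5p 802 ± 119 CPM (SD, n = 7), beside lesion means of 18780 ± 4252 CPM and 1131 ± 243 CPM (SD, n = 7).

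No member passed the adjusted threshold between spontaneous and induced disease. Between spontaneous and induced lesions 0 of the 8 members were called, as were 0% of all 467 miRNAs, while 2 of the 8 members and 7.92% of all miRNAs (37) had an unadjusted p under 0.05. Those were let-7i-5p and miR-98-5p. With library totals the number was 0, at log2 fold changes of 0.57 for let-7i-5p and 0.58 for miR-98-5p. let-7i-5p averaged 6344 ± 1603 CPM in spontaneous lesions (SD, n = 4) and 4439 ± 535 CPM in induced lesions (SD, n = 8), a log2 fold change of 0.55 (confidence interval 0.15 to 0.95, adjusted p = 0.563 by edgeR). Its values overlapped, from 5034 to 8572 CPM in spontaneous and from 3579 to 5382 CPM in induced lesions, and without PA6303 the log2 fold change was 0.37. miR-98-5p averaged 1531 ± 364 CPM in spontaneous lesions (SD, n = 4) and 1112 ± 232 CPM in induced lesions (SD, n = 8), a log2 fold change of 0.50 (confidence interval 0.03 to 0.97, adjusted p = 0.603 by edgeR), and these groups overlapped too. The other 6 lay between −0.09 for let-7e-5p and 0.27 for let-7b-5p. DESeq2 called 1 miRNA and edgeR-robust 7, none of them a member.

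Between spontaneous and induced eutopic endometrium 0 of the 8 members and 0% of all 507 miRNAs were called, and 0 members and 10.7% of all miRNAs (54) had an unadjusted p under 0.05. The estimates ran from 0.05 for let-7e-5p to 0.44 for miR-98-5p (confidence interval −0.20 to 1.08). DESeq2 called 3 miRNAs and edgeR-robust 11, again without a member. The difference of the lesion effect between the diseases was called for 0 of 8 members and 0% of all 527 miRNAs, with 0 members and 3.04% of all miRNAs (16) at an unadjusted p under 0.05, and both DESeq2 and edgeR-robust called 3 miRNAs and 0 members. It was −0.07 for miR-98-5p (confidence interval −0.85 to 0.71) and ran from −0.37 for let-7f-5p (−1.40 to 0.66) to 0.29 for let-7i-5p (−0.43 to 1.01). The interval of every member included 0.

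Each let-7 hairpin also yields a passenger strand (-3p), which is mostly degraded. Of 10 passenger strands, 9 were abundant enough to test. In induced lesions let-7d-3p (log2 fold change 0.58, adjusted p = 0.0227 by edgeR) and let-7a-3p (0.65, adjusted p = 0.0232 by edgeR) were called higher. That is 2 of 9, where 20.7% of all miRNAs tested were called higher (105 of 507). Over the 12 animals 5 of 9 were called higher, let-7d-3p (0.65), let-7i-3p (0.65), let-7b-3p (0.58), let-7a-3p (0.47) and let-7f-1-3p (0.44). Among all miRNAs 25.6% were called higher there (135 of 527). No passenger strand was called lower, and in spontaneous disease 0 of 9 were called. With DESeq2 size factors let-7f-1-3p lost its call over the 12 animals (0.42, adjusted p = 0.0585 by edgeR). With library totals 0 were called higher, and let-7g-3p and miR-98-3p were called lower in induced disease (−0.99 and −0.96) and over the 12 animals (−0.88 and −0.82). Of all miRNAs, 294 of 507 and 309 of 527 were then called lower.

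As a percentage of the counts of both strands, which is free of scaling between libraries, the passenger strands of let-7a, let-7b, let-7d and let-7i were higher in the lesion in 10 of 12 animals each, and those of let-7e and let-7g in 8 of 12. The median of let-7e was nonetheless slightly lower in lesions, at 0.951% against 0.975% in eutopic endometrium. For let-7a the guide reads are listed under 3 precursors, and let-7a-2-3p was not counted, so its percentage is not that of a single hairpin. let-7d had by far the highest passenger level, with a median of 14.6% in lesions and 10.4% in eutopic endometrium. The highest value, 26.2%, was that of the eutopic library of PA7539. let-7i had a median of 0.448% in lesions and 0.289% in eutopic endometrium. miR-98 ran the other way, with a median passenger percentage of 0.901% in lesions and 1.68% in eutopic endometrium, and a higher value in the lesion in 2 of 12 animals. With TMM its guide strand was called higher over the 12 animals, whereas miR-98-3p did not pass (0.02 on the log2 scale, SE 0.22). The miR-98-3p counts were low, from 11 upward per library, as were those of let-7g-3p, also from 11, and let-7e-3p, from 28.

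**Figure D4:**
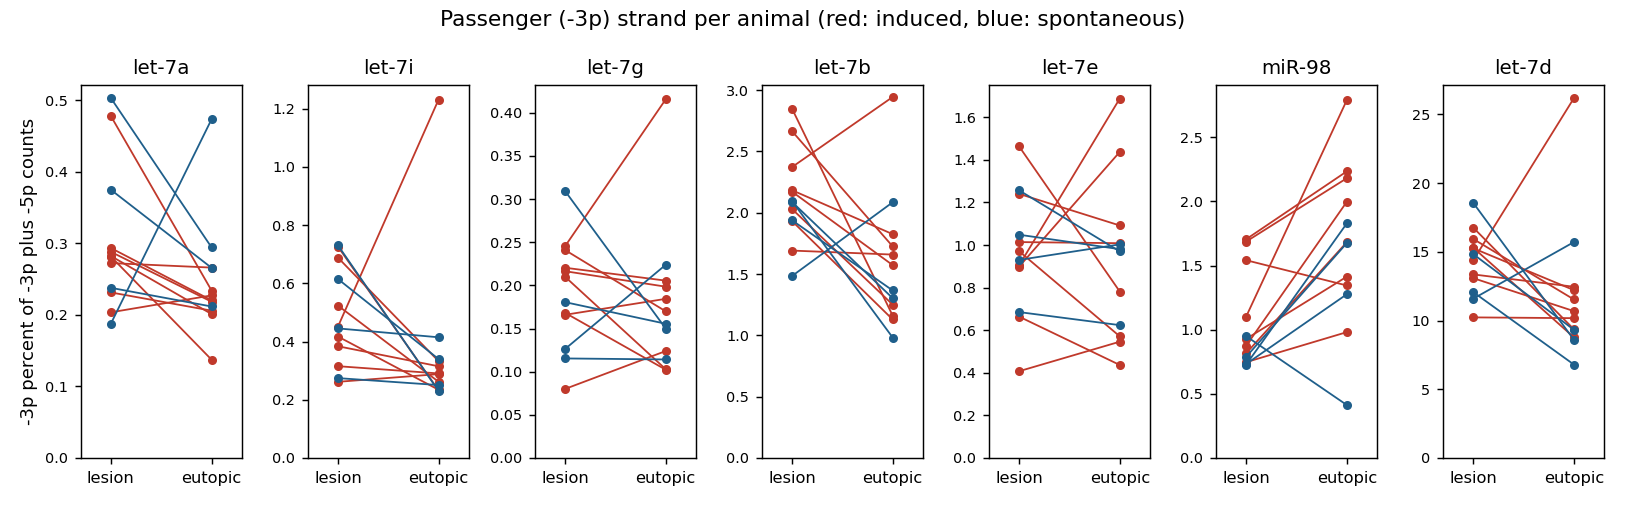
Passenger strand as a percentage of the passenger plus guide counts of 7 let-7 miRNAs, with lesion and eutopic endometrium of the same animal joined (red for 8 induced, blue for 4 spontaneous animals). The percentage is higher in the lesion in 10 of 12 animals for let-7a, let-7b, let-7d and let-7i and in 2 of 12 for miR-98.

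The miRNAs encoded beside let-7 genes, miR-99b and miR-125a with let-7e, and miR-100 and miR-125b with let-7a-2, were listed as cluster partners. Of 8 listed strands 6 were tested. In induced lesions 4 were called higher, miR-125b-5p (log2 fold change 1.96), miR-100-5p (1.83), miR-125a-5p (0.93) and miR-99b-5p (0.51), beside let-7e-5p at 0.38 and let-7a-5p at 0.23, neither of which passed. Over the 12 animals 5 were called higher, miR-125b-5p at 1.80, miR-100-5p at 1.69, miR-125a-5p at 0.86, miR-99b-5p at 0.60 and miR-99b-3p at 0.32, and in spontaneous disease 0 were. Of all miRNAs tested, 20.7% were called higher in induced lesions (105 of 507) and 25.6% over the 12 animals (135 of 527). With DESeq2 size factors miR-99b-3p was not called (0.30, adjusted p = 0.0522 by edgeR). With library totals miR-125b-5p (0.99 in induced disease, 0.96 over the 12 animals) and miR-100-5p (0.84 and 0.83) were still called higher, and the other 4 were not called. miR-125b-5p and let-7a-5p can each arise from more than one locus. miR-4458 and miR-4500, human miRNAs with the let-7 seed, had 0 counts in every library, as had both strands of miR-4763, which is encoded near let-7b.

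Libraries of one group differed in a coordinated way for some members and not for others. After removal of the group means, log2 levels of let-7a-5p and let-7f-5p had a Pearson correlation of 0.83 over the 24 libraries, and let-7a-5p and let-7g-5p one of 0.81. let-7i-5p followed miR-98-5p (0.72) more closely than it followed let-7a-5p (0.28), and let-7b-5p and miR-98-5p ran in opposite directions (−0.41). The points share libraries and their scaling, and the library of PA7539 lies far out for several members. Among 200 other miRNAs of sufficient level, those most like let-7a-5p on the same measure were miR-130a-3p (0.84), miR-497-5p (0.83), miR-29a-3p (0.77), miR-26b-5p (0.76) and miR-151b (0.76). The paralogue let-7c-5p, left out of the 200, stood at 0.80.

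Close sequences limit how well the members can be told apart. The table lists let-7a-5p under 3 precursors, with totals of 99.9% to 100% of the highest, and let-7f-5p under 2, the lower at 97.9% of the higher, so that the same reads appear to be listed under each. Whether reads that match several members were split, and how many mismatches were allowed against the human sequences, is not given in the sources used here. Values of members that differ by few bases, and of let-7c-5p beside them, are uncertain to that extent.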

How the data were processed

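Total RNA from 24 baboon samples was made into Illumina TruSeq small RNA libraries. Per the labels and the design text, the authors trimmed reads with Trim Galore 0.3.3 and counted them against human miRNAs of miRBase release 22 with miRDeep2 0.0.7. The deposited values are raw counts per mature miRNA and precursor (2888 rows, 2656 mature miRNAs, 168 with several precursors). Human sequences as the reference can lower the counts of baboon miRNAs that differ. The row with the highest total was kept per miRNA, and CPM, ranks and shares were computed from it. Samples were grouped by tissue and disease, and each lesion was paired with the eutopic endometrium of the same animal, as labelled. Deviations from the group means correlated within pairs at −0.144 to 0.483, above 0.1 in 7 of 12 animals. miRNAs that reached 2 CPM in 2 or more libraries of a comparison were tested with edgeR 4.0.16 in R 4.3.3 (robust quasi-likelihood test, TMM, animal as a block, Benjamini-Hochberg over all miRNAs, threshold 0.05). The code was checked on simulated counts. Alternatives were DESeq2 size factors, library totals, no filter, filterByExpr, summed precursors, edgeR-robust, DESeq2 1.42.0, no block, and leaving out each animal. The scaling alternatives for the lists of other miRNAs, and the family shares without PA7539, were added after seeing the data. The members and lists were chosen with earlier results of these data known. All members were named in lesion comparisons, and between diseases those with the extreme or lowest-p values. No miRNA sequences were used here. With depths of 2592999 to 7573913 counts, the intervals given reflect the spread between animals.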

Additional observations from a re-analysis of the deposited data

Results flagged for a closer look

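A value was singled out where the gap of the highest or lowest library or animal to its nearest neighbour filled most of its group's range (Dixon's criterion at 95%, groups of 4 or 8). Of 80 groups checked, 11 were singled out, and 8 of the 11 belonged to PA7539. CPM, family share and lesion change were taken from the same libraries, and a lower share of one member raises the others. The groups are therefore not independent, and their number cannot be set against the 1 in 20 that chance gives for independent groups. In its induced eutopic library, miR-98-5p was at 221 CPM (nearest 650), let-7f-5p held 18.6% of the family's counts (nearest 30.4%), and let-7b-5p held 16.4% (nearest 7.34%). let-7e-5p held 4.34% (nearest 2.77%) and let-7d-5p 1.83% (nearest 1.29%) in the same library. At 1202 and 508 CPM, both lay within the range of the other induced eutopic libraries. The log2 change of lesion over eutopic endometrium in PA7539 was 2.18 for let-7f-5p (nearest 0.74), 2.14 for miR-98-5p (nearest 0.95) and 0.93 for let-7g-5p (nearest 0.04). Its eutopic library had the highest TMM scaling factor of all libraries (1.91) and its lesion library the lowest (0.438), with miR-143-3p at 71.7% of the lesion counts. Compared with library totals, these factors raise every lesion change in this animal. The family share of let-7g-5p was 7.86% in its lesion and 8.40% in its eutopic endometrium.

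In the induced eutopic library of PA7696, let-7e-5p was at 1782 CPM (nearest 1227) and let-7d-5p at 892 CPM (nearest 597), both above the rest of the group. Among the spontaneous animals, PA5655 had the smallest log2 change of miR-98-5p, 0.14, where the nearest was 0.72. No difference between the diseases passed a test for any member, and no member moved one way in every induced animal and the other way in every spontaneous animal.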

How the results depend on the processing

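Library totals in place of TMM turned most directions. Of all miRNAs tested they called 33 higher and 294 lower in induced disease, and 38 higher and 309 lower over the 12 animals. In induced disease they gave 0 members called higher and 7 lower, let-7g-5p at −1.10, let-7a-5p at −0.76, let-7b-5p at −0.93, let-7d-5p at −0.68, let-7e-5p at −0.60, let-7f-5p at −0.57 and let-7i-5p at −0.95, while miR-98-5p at −0.31 was not called. In spontaneous disease let-7g-5p was at −0.78, let-7a-5p at −0.52, let-7b-5p at −0.39, let-7d-5p at −0.44, let-7e-5p at −0.40, let-7f-5p at −0.53, let-7i-5p at −0.24 and miR-98-5p at 0.03. There 0 members were called and 1 had an unadjusted p under 0.05 by edgeR, while 14 of all miRNAs tested were called lower and 0 higher. Over the 12 animals 0 members were called higher and 7 lower, let-7g-5p at −0.99, let-7a-5p at −0.68, let-7b-5p at −0.75, let-7d-5p at −0.60, let-7e-5p at −0.53, let-7f-5p at −0.56 and let-7i-5p at −0.72, while miR-98-5p at −0.19 was not called. Between the eutopic groups let-7e-5p was at −0.37, and the difference of the lesion effect was 0.0431 for let-7f-5p and 0.34 for miR-98-5p. The cause was not tested. DESeq2 size factors kept the direction of every member in the lesion comparisons.

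In induced disease the call of miR-98-5p was lost with summed precursors (0 members; 0.67, adjusted p = 0.0501 by edgeR), and the members called ran from 0 to 1 on leaving out each animal. Without the replicate block, that is without pairing by animal, 0 members were called in induced disease (miR-98-5p at 0.58), let-7i-5p was at −0.0358 there, the difference of the lesion effect was 0.0214 for miR-98-5p, and 0 miRNAs were called in spontaneous disease. miRNAs called in spontaneous disease numbered 1 in the quasi-likelihood test, 0 with DESeq2 size factors, filterByExpr, summed precursors or any animal left out, 14 with library totals, 45 with edgeR-robust, 48 with DESeq2 and 68 without a filter. Without a filter let-7a-5p was at −0.0321 and let-7f-5p at −0.0410 in spontaneous disease and let-7e-5p at −0.00293 between eutopic groups, and with filterByExpr let-7a-5p was at −0.0185 and let-7f-5p at −0.0282. Between the diseases edgeR-robust called 7 miRNAs in lesions, 11 in eutopic endometrium and 3 for the difference of the lesion effect, where DESeq2 called 1, 3 and 3, and leaving out each library gave 0 to 8 in eutopic endometrium.

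Leaving out each animal gave ranges across 0. They were −0.00673 to 0.14 for let-7b-5p and −0.14 to 0.18 for let-7i-5p in induced disease. In spontaneous disease they were −0.31 to 0.25 for let-7a-5p, −0.0889 to 0.32 for let-7b-5p, −0.15 to 0.26 for let-7d-5p, −0.19 to 0.32 for let-7e-5p and −0.37 to 0.24 for let-7f-5p, each with its lowest value without PA6762. Between spontaneous and induced lesions let-7e-5p ran from −0.38 to 0.0142 and let-7c-5p from −0.0366 to 0.66, and between the eutopic groups let-7e-5p ran from −0.11 to 0.16. The difference of the lesion effect ran from −0.17 to 0.14 for miR-98-5p, the highest without PA7539. Summing precursors counts the same reads again, and put let-7a-5p at 47728 CPM and let-7f-5p at 29697 CPM. The mean shares of the family then were 52.9% for let-7a-5p, 3.49% for let-7b-5p, 0.606% for let-7d-5p, 1.32% for let-7e-5p, 3.88% for let-7g-5p, 4.66% for let-7i-5p and 0.987% for miR-98-5p. With let-7c-5p in the sum let-7a-5p held 33.2%. Depth limits none of the members, and the 4 spontaneous pairs limit the precision of that comparison.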
